A study of Caenorhabditis elegans with 4 samples.

Results

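The right part of the X chromosome of Caenorhabditis elegans carried ZFP-1 at a high density. It was taken as every peak on X whose midpoint lay at or beyond base 12480000 on WormBase WS220, and this held 1139 of the 13878 peaks of the list deposited for the whole series, or 8.21%. These were 31.1% of the 3664 peaks on X. The same window held 292 peaks in the list of ChIP replicate 1 and 525 in that of replicate 2. Its length, from that base to the last base covered by any peak, was 5.23 Mb. The left and middle parts of X measured 6.14 and 6.34 Mb, so the window's share of the X peaks was close to its share of the length.

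All samples came from whole L3 larvae of wild-type strain N2, cultured at 20 degrees Celsius, in a population of males and hermaphrodites whose proportions the labels do not give. The series holds 4 samples, with 2 replicates of ZFP-1 chromatin immunoprecipitation followed by sequencing (ChIP-seq) and 2 of input DNA. The rabbit polyclonal antibody was raised against residues 573 to 867 of ZFP-1, and every immunoprecipitation took 2 mg of extract. Whole larvae mix tissues, so a peak cannot be tied to a cell type. The input samples had no peak list analysed here, so the background of input DNA could not be set beside any value. Read depth is unknown, since the lists hold positions and a score per peak.

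ZFP-1 is a zinc-finger protein of the nematode nucleus, related to mammalian MLLT10 (AF10), that works with DOT-1.1, a methyltransferase of histone H3. Both are known for their presence at the promoters of actively transcribed genes. The X chromosome is present once in males and as a pair in hermaphrodites, and a dosage compensation complex lowers its transcription in hermaphrodites. Chromosome arms of this species recombine more often than centres. On the autosomes the arms also carry fewer essential genes and more repeats, a contrast that is weaker on X.

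The design asks for the genomic sites of ZFP-1 in L3 larvae. The right part of X was compared with the other parts of X, and with the right arms of chromosomes II to V. These autosomal stretches lie at the same end of their chromosomes but were not matched to X in gene or repeat content. The series list gave 218 peaks per Mb in the right part of X (exact Poisson 95% interval 205 to 231). Replicate 1 gave 55.8 per Mb (49.6 to 62.6) and replicate 2 gave 100.3 per Mb (91.9 to 109). In each of the 3 lists this was the highest of the 7 parts compared. Such intervals cover counting error over peaks and treat peaks as independent, although neighbouring peaks are not. Whether the ChIP replicates came from separate cultures is not stated, so differences between them may reflect handling alone.

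**Figure D1:**
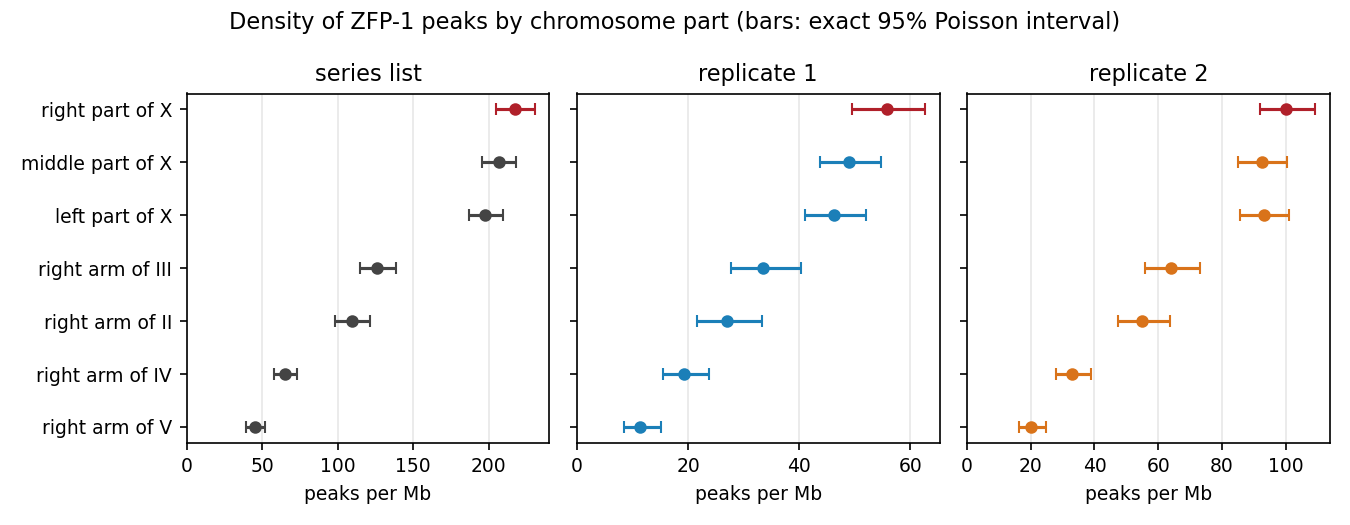
Peaks per Mb (x axis) in 7 chromosome parts, 1 panel for each list, with exact 95% Poisson intervals as bars. The right part of X, in red, lies highest in each panel, close to the other parts of X and clear of the 4 autosomal right arms.

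Against the autosomal arms the excess was large and was seen in both replicates. The right arm of III came closest, with 126 series-list peaks per Mb, followed by II with 109, IV with 65.1 and V with 45.1. The density ratio of the right part of X was 1.72 (1.54 to 1.93) to III and 1.99 (1.77 to 2.25) to II. It was 3.34 (2.94 to 3.81) against IV and 4.83 (4.15 to 5.64) against V. In replicate 1 the ratios were 1.66 to III, 2.06 to II, 2.89 to IV and 4.88 to V, and in replicate 2 they were 1.56, 1.82, 3.03 and 4.98 in the same order. All 12 ratios passed an exact binomial test, two-sided, of the number of peaks given the lengths of both parts, adjusted by Benjamini-Hochberg over 18 comparisons. The highest adjusted p among them was 3.31e-06, for III in replicate 1. The order of the 4 arms was the same in every list. With peaks under 1 kb apart joined, the series-list ratios fell to 1.39 (III), 1.52 (II), 2.49 (IV) and 3.49 (V). All 4 still passed the exact test.

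Within X the right part was only slightly denser than the rest. The left part held 198 series-list peaks per Mb and the middle part 207. The ratio to the left part was 1.10 (1.01 to 1.19, exact binomial test, adjusted p = 0.030) in the series list and 1.21 (1.02 to 1.42, adjusted p = 0.0343) in replicate 1. In replicate 2 it was 1.08 (0.95 to 1.21), which did not pass the exact test (adjusted p = 0.226). Leaving out the outermost 1 Mb of the chromosome ends also ended the call, at 1.08 (exact binomial test, adjusted p = 0.104), as did joining peaks under 1 kb apart, at 1.01 (adjusted p = 0.847). Counting only peaks met in both replicates kept the call, at 1.19 (1.04 to 1.36, exact binomial test, adjusted p = 0.0138). Against the middle part, the series list gave a ratio of 1.05 (0.97 to 1.14, exact binomial test, adjusted p = 0.221). Replicate 1 gave 1.14 (0.97 to 1.34, exact test, adjusted p = 0.144) and replicate 2 gave 1.08 (0.96 to 1.22, exact test, adjusted p = 0.208), and none of the 3 passed. Leaving out the outermost 1 Mb of the chromosome ends gave a call here, at 1.09 (exact binomial test, adjusted p = 0.0475). A greater density than the middle of X thus rested on that setting, and an equal one was not shown. All these tests treat peaks as independent, which neighbouring peaks are not. The series-list density of full 500 kb bins had standard deviations of 39.7 (right), 30.0 (middle) and 59.0 (left) peaks per Mb. Calls within X that lie close to the 0.05 threshold are thus weak.

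The right part of X also had the highest covered share of the 7 parts in each list. Peaks of the right part covered 505 kb in the series list, 488 kb in replicate 1 and 939 kb in replicate 2, which was 9.64%, 9.32% and 17.9% of its length. The left part of X was covered to 8.70%, 7.98% and 16.0% and the middle part to 9.58%, 9.18% and 17.3%. The autosomal right arms ran from 1.68% (V) to 5.22% (III) in the series list. The covered-base ratios were 2.24 to II, 1.85 to III, 3.58 to IV and 5.75 to V, so each lay above the ratio of peak counts. The mean width of a series-list peak was 443 bp in the right part of X and 372 to 414 bp in the arms. The median width in the right part of X was 343 bp (interquartile range 234 to 537 bp), between the 335 bp of the left and the 347 bp of the middle part. In the 4 arms it was 307 to 321 bp. The exact 95% interval of the median, 326 to 360 bp, overlapped those of II, III, IV and V, and these medians were not tested against each other.

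The replicate lists held broader peaks than the series list, and the median in the right part of X again exceeded those of the arms. The median was 1293 bp in replicate 1 and 1268 bp in replicate 2, against 1101 to 1241 bp and 1050 to 1149 bp in the arms. In replicate 1 it was the smallest on X, below 1304.5 bp in the left and 1309 bp in the middle part. In replicate 2 it lay between the 1233 bp of the left and the 1300 bp of the middle part. Peaks of 1 kb or more made up 5.53% (exact Clopper-Pearson 95% interval 4.28 to 7.02%) of the series-list peaks of the right part of X, 63 in number. The share was 5.52% in the left part, 5.95% in the middle part and between 1.52% (V) and 4.78% (IV) in the arms. These differences in width were not tested.

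Sites in the right part of X lay close together. The median gap from the end of a peak to the start of the next was 1146 bp in the series list (interquartile range 410 to 4407 bp). It was 1352 bp in the middle and 1439 bp in the left part of X, and between 2202 bp (III) and 6379 bp (V) in the arms. Of the 1138 gaps, 528 were under 1 kb, or 46.4% (43.5 to 49.3%), against 26.0 to 33.8% in the arms. The other parts of X were close, with 44.4% (41.6 to 47.1%) in the middle and 41.7% (38.9 to 44.5%) in the left part. The replicates differed on the contrast with the arms, which was not tested. In replicate 1 the share was 16.8% (12.7 to 21.6%), below the 24.1% of II and the 21.9% of III and above the 11.6% of IV and the 10.2% of V. In replicate 2 it was 30.0% (26.1 to 34.1%), against 17.2 to 25.8% in the arms. The middle and left parts of X had 15.5% and 12.4% in replicate 1, and 24.2% and 26.4% in replicate 2. The replicate gaps were longer, with medians of 6902 bp and 3407 bp, and both were the shortest of the 7 parts in their list. A part with more peaks has shorter gaps in any case. Set against the mean gap of its own part, the median gap was 27.6% in the right part of X. The 4 arms had 24.6 to 29.4% and the other parts of X had 31.0% and 31.2%.

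**Figure D2:**
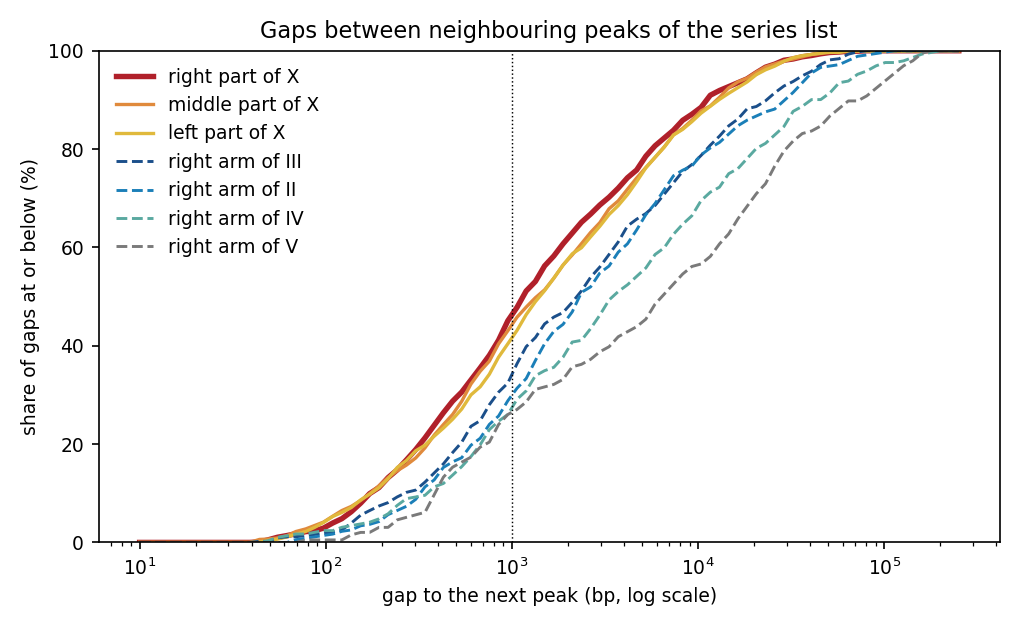
Share of gaps (y axis, %) at or below a given length (x axis, bp, log scale) between neighbouring series-list peaks, with 1 line for each part and a dotted line at 1 kb. The line of the right part of X crosses 1 kb at 46.4% and runs above those of the 4 arms. The middle and left parts of X stand at 44.4% and 41.7% there.

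Most peaks of the right part of X stood in runs, with neighbours less than 1 kb away. There were 230 runs of 2 or more peaks, which held 758 of the 1139 peaks (66.5%, 63.7 to 69.3%), and 381 peaks stood alone. The left part had 61.2% of its peaks in runs, the middle part 65.4% and the arms 39.6% (V) to 53.1% (III). In the replicate lists, whose peaks are wider, the share in the right part of X was 31.2% and 49.1%. In replicate 1 the arms of II and III had larger shares, 38.6% and 39.1%, while IV and V had 21.8% and 20.0%. In replicate 2 all 4 arms had smaller shares, from 26.1% (V) to 44.7% (II). These shares were not tested against each other. Peaks in runs met both replicates in 47.5% of cases and single peaks in 22.6%.

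The longest run held 14 peaks between 16143307 and 16153995. They covered 66.2% of its 10689 bp, their scores ran from 1.65 to 119.68, and 11 of the 14 met a peak in both replicates. A single replicate 2 peak, from 16141876 to 16152617 with a score of 3100, held 13 series-list peaks, the most of any in the window. Replicate 1 set 3 peaks over the same run, the best with a score of 1334. The next run, of 12 peaks between 12907012 and 12916027, was weak. Its best score was 28.58, only 1 of its 12 peaks met both replicates, and the only replicate 1 peak there scored 78.6. Of the 5 runs of 9 peaks, the leftmost, between 12627777 and 12635340, began at the end of a peak-free stretch of 64.0 kb. It reached 120.63, with 6 of 9 peaks met in both replicates.

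Long stretches without a peak were also present. The longest ran from 14359832 to 14437849, 78.0 kb in which the series list had no peak and neither replicate list touched it. The others of the 5 longest were 64.0, 58.5, 52.1 and 49.7 kb. None of the 5 held a whole replicate peak, and replicate peaks reached only into the margins of the 4 shorter ones. The stretches of 58.5 and 52.1 kb lay side by side. The first spanned 15881332 to 15939789 and the next 15941732 to 15993838. Between them stood 2 peaks with scores of 11.4 and 37.4 that met replicate 2 alone. Gaps of 20 kb or more numbered 53 and took up 32.1% of the right part of X. They took up 29.5% of the middle part, 33.4% of the left part and 53.6% (III) to 81.4% (V) of the arms.

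The same 500 kb bin of the right part of X was the densest in each list. Over its 10 full bins of 500 kb, the series list ran from 168 to 300 peaks per Mb with a median of 227. Replicate 1 ran from 44 to 78 with a median of 50, and replicate 2 from 70 to 132 with a median of 103. The densest bin, from 13480000 to 13979999, held 150 series-list peaks, 39 replicate 1 peaks and 66 replicate 2 peaks. The sparsest was the one from 16980000 to 17479999 in the series list and replicate 1. In replicate 2 it was the one from 13980000 to 14479999, next to the densest, which contains the peak-free stretch of 78.0 kb. The intervals of the densest and the sparsest bin did not overlap in the series list (254 to 352 against 134 to 208 peaks per Mb). They overlapped in replicate 1 (55.5 to 107 against 27.6 to 66.6) and did not in replicate 2 (102 to 168 against 48.8 to 97.4). These bins are the extremes of 10, and their difference was not tested. Across the 10 bins the replicates' densities had a Pearson r of 0.73 and a Spearman rho of 0.72, a description over neighbouring positions in 2 libraries. Every full bin of the right part of X lay above the highest bin of the right arms of II, III and V in the series list, at 132, 148 and 66 peaks per Mb. The arm of IV had a bin of 150, also lower than the 168 of the sparsest full bin in the right part of X. The middle part of X, with a lowest bin of 162, also lay above all arm bins. The left part of X, with a lowest bin of 78, did not. The replicate bins of the right part of X overlapped with those of III. The highest of III was 48 in replicate 1 and 80 in replicate 2, above the lowest of the right part of X, 44 and 70. The highest bins of II, IV and V lay below that lowest bin in both replicates.

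**Figure D3:**
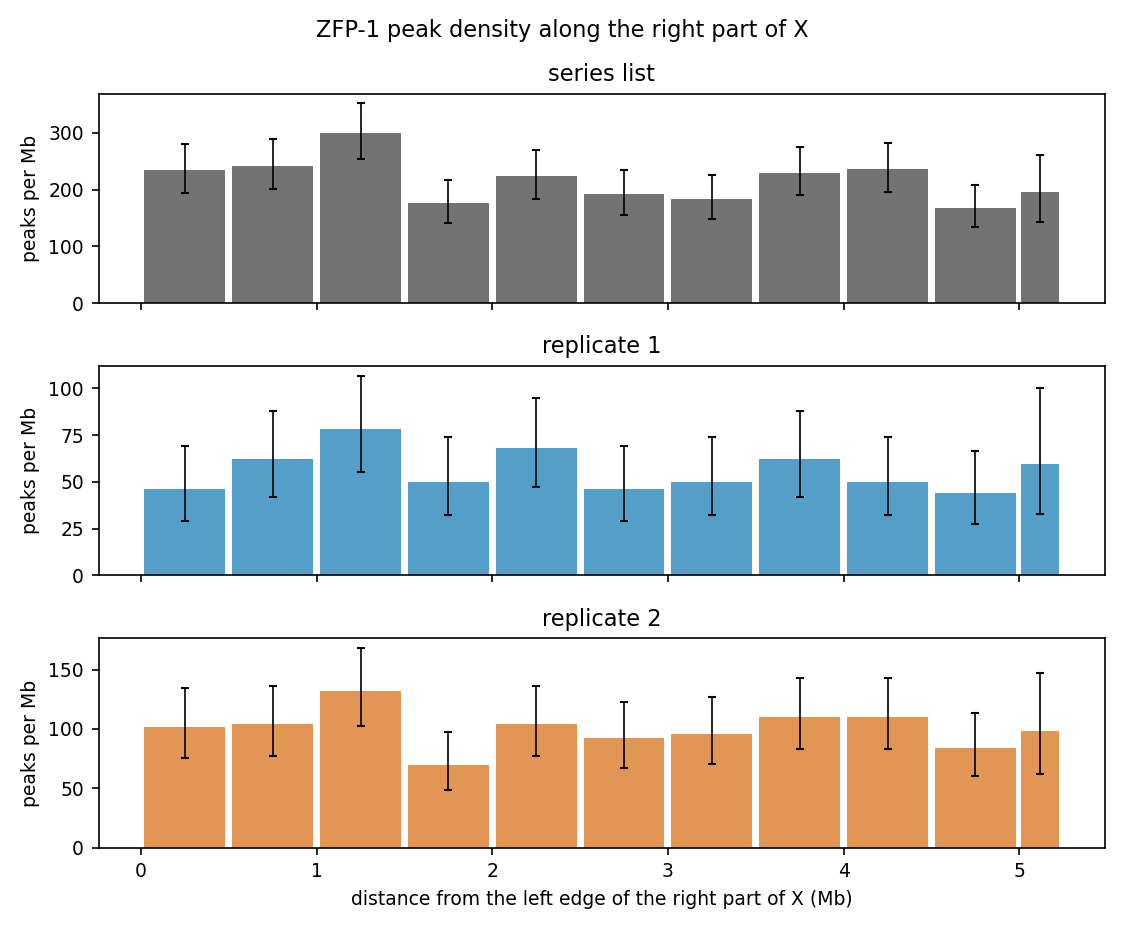
Peaks per Mb (y axis) in consecutive 500 kb bins by distance from the left edge of the right part of X (x axis, Mb), 1 panel for each list, with exact 95% Poisson intervals as bars. The last bin is shorter, and the bin from 1 to 1.5 Mb is the highest in each list.

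Towards the chromosome end the series list had a lower density. The outermost 1 Mb held 183 series-list peaks (157 to 212), against 226 per Mb (212 to 241) over the rest of the right part of X. Replicate 1 had 51 (38.0 to 67.1) there against 56.9 per Mb (49.9 to 64.6), and replicate 2 had 89 (71.5 to 110) against 103 per Mb (93.5 to 113). The intervals overlapped in the replicates, and this difference was not tested. The median score of the series-list peaks was 18.6 in the outermost 1 Mb and 13.6 in the rest. The last series-list peak, from 17714321 to 17714611 with a score of 39.42, met the last replicate 2 peak, from 17714086 to 17714968 with a score of 196. Replicate 1 ended earlier. Its last peak, from 17640284 to 17641476 with a score of 62.2, lay 73.5 kb before the last base covered in any list.

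At the left edge the division fell between peaks in the series list and replicate 1, and in replicate 2 it cut the first peak inside, from 12479997 to 12481119. The first member, from 12480312 to 12480739, scored 102.76 in the series list, where the last peak outside, from 12467537 to 12467851, scored 7.56. In replicate 1 the peak just inside scored 238 and the one just outside 79.8, and in replicate 2 these values were 605 and 682. The midpoints of the peaks just outside lay 12.3 to 13.2 kb before the edge in the 3 lists.

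The share of members supported by both replicates was close to that of the whole series. Of the 1139 peaks, 446 overlapped a peak of both replicates by at least 1 bp, or 39.2% (36.3 to 42.1%), against 38.4% of all series-list peaks. A further 453 (39.8%, 36.9 to 42.7%) met replicate 2 alone, and replicate 1 was the only one met by 11 (0.966%, 0.483 to 1.72%). The remaining 229 (20.1%, 17.8 to 22.6%) met neither. Of the whole list, 25.3% met neither, as did 23.5% of the left part of X, 23.8% of the middle part and 27.3% (III) to 43.1% (V) of the arms. The interval of the right part of X, up to 22.6%, lay below those of the arms of II, III, IV and V, which began at 23.8%, 23.1%, 27.1% and 36.1%. These shares were not tested against each other. The series list is not a measurement separate from the replicates, since the study has only these 2 ChIP libraries.

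Score and width went together with support. Where both replicates were met, the members' median score in the series list was 42.6 and their median width was 535 bp. Those met in replicate 2 alone had 12.7 and 327 bp, and those met in neither 6.46 and 210 bp. Of the members among the lowest-scoring 20% of the series list, 16.0% (11.7 to 21.1%) met both replicates, and the share was 18.9%, 25.8% and 56.9% in the following steps. Among the highest-scoring 20% it was 95.1% (174 of 183 peaks, 90.9 to 97.7%). By width, 13.2% of the 287 narrowest members (146 to 234 bp) met both, as did 77.8% of the 284 widest (541 to 6228 bp). Width and score had a Spearman rho of 0.74 across the 1139 members and 0.74 across the whole list, a description across peaks.

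The replicates overlapped in the window as they did elsewhere. Of the 292 replicate 1 peaks, 285 met a replicate 2 peak, or 97.6% (95.1 to 99.0%), against 97.8% in the whole list. Of the 525 replicate 2 peaks, 270 met a replicate 1 peak, or 51.4% (47.1 to 55.8%), against 50.4% overall. With a reciprocal overlap of 50% the first share was 78.4%. All 292 replicate 1 peaks and 523 of the 525 replicate 2 peaks met a series-list peak. Recovery followed the replicate 2 score. Of the window's 101 peaks from the lowest-scoring 20% of replicate 2, 6 met replicate 1 (5.94%, 2.21 to 12.5%), and all 102 from its highest-scoring 20% did (96.4 to 100%).

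Scores were higher in replicate 2 for nearly every shared site. In the window 265 pairs of peaks were each other's largest overlap, and the replicate 2 score was the higher in 254 of them (95.8%). Its peak was the wider in 205 (77.4%). Over all 3165 such pairs of the whole lists these shares were 93.4% and 74.5%. The median difference of log10 scores, replicate 2 minus replicate 1, was 0.63 in the window and 0.56 over all pairs. Scores correlated with a Pearson r of 0.76 on the log10 scale and a Spearman rho of 0.81, across peaks that share 2 libraries. Ties enter here, because many peaks carry a score of exactly 3100. That value was not a strict ceiling, since scores in the window reached 3128 in replicate 1 and 3112 in replicate 2. In the window 39 replicate 2 peaks (7.43%) and 8 replicate 1 peaks (2.74%) reached 3100 or more, against 8.18% and 2.70% in the whole lists. With such pairs left out, 226 pairs gave r = 0.69 and rho = 0.73.

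**Figure D4:**
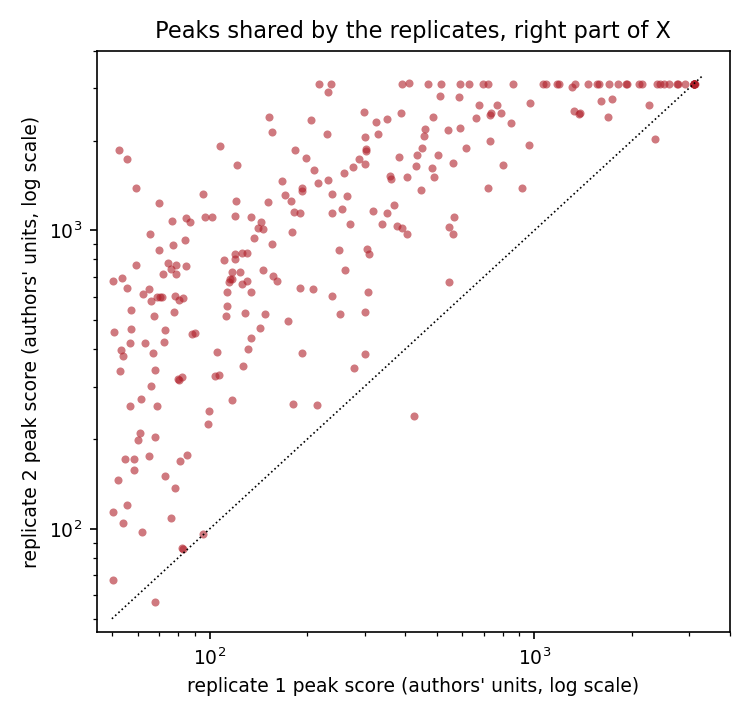
Scores of 265 pairs of overlapping peaks in the right part of X, replicate 1 on the x axis and replicate 2 on the y axis, both in the authors' score on log scales, with equality as a dotted line. In 254 pairs the point lies above the line, and replicate 2 scores pile up at 3100.

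The 7 replicate 1 peaks without a replicate 2 overlap were mostly weak. All but one scored between 55.9 and 106, and the peak from 15806922 to 15812233 stood apart, with a width of 5312 bp and a score of 247. It held 3 series-list peaks with scores from 4.85 to 10.1, and the nearest replicate 2 peak lay 25943 bp away. On the other side, the strongest replicate 2 peak without a replicate 1 overlap ran from 13811400 to 13812642 with a score of 1317. Peaks from 13936473 to 13941840 (5368 bp, score 1150) and from 14514649 to 14517673 (3025 bp, score 1080) followed. Of the series-list peaks met in neither replicate, the best, from 15167685 to 15167907, scored 35.72.

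In the series list the right part of X held many peaks of low score, and a small share of its peaks was among the very highest. Its median series-list score was 14.3, against 13.9 in the left and 13.3 in the middle part of X, and 18.6 to 20.4 in the arms. Only 74 of its 1139 peaks, or 6.50% (5.14 to 8.09%), belonged to the highest-scoring 10% of the series list. The share was 6.10% and 6.03% in the other parts of X and 10.7% (II) to 14.7% (V) in the arms. Counted per Mb, those best peaks came to 14.1 in the right, 12.1 in the left and 12.5 in the middle part of X. The arms had 14.3 in III, 11.7 in II, 8.22 in IV and 6.64 in V. With these peaks alone, a threshold chosen after seeing the data, the density ratio was 0.99 (0.68 to 1.45) to III and 1.21 (0.81 to 1.84) to II. Neither passed the exact binomial test (adjusted p = 1 and 0.558). The ratio was 1.72 (1.14 to 2.63, adjusted p = 0.0223) to IV and 2.13 (1.37 to 3.40, adjusted p = 0.00206) to V, by the same exact test. The replicate lists did not show the lower median score, as the medians of the right part of X lay within the range of the arms. They were 180 in replicate 1, against 177 (V) to 260 (III), and 351 in replicate 2, against 322 (II) to 444 (V). In the replicate lists the share of highest-scoring peaks was 9.93% (6.75 to 14.0%) and 8.76% (6.49 to 11.5%). The arms had 6.0% (V) to 16.5% (III) in replicate 1 and 6.82% (V) to 10.9% (III) in replicate 2, and these shares were not tested against each other.

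The strongest sites were spread over the whole stretch. Among the 20 members that scored best in the series list and met both replicates, scores ran from 152.24 to 210.08 and widths from 443 to 6228 bp. The first of them ranked 50 and the last 589 in the series list of 13878. Their replicate 1 scores ran from 156 to 3128 with a median of 909.9, and those in replicate 2 from 899 to 3100 with a median of 3100. Of the 20, 7 lay under a peak of the highest-scoring 10% in replicate 1 and 13 in replicate 2. Every one was wider in both replicate lists than in the series list. The outermost 1 Mb held 3 of them.

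The site of the right part of X with the highest series-list score did not lead in the replicates. It ran from 14146163 to 14147176 and scored 210.08, with 388 in replicate 1, rank 1224 of 3559, and 2466 in replicate 2, rank 724 of 6371. The second site, from 15272186 to 15278413, scored 198.20 and stood at 3100 in both replicates. The third ran from 16798179 to 16799792 with a score of 186.74, and had 1695 in replicate 1 and 3100 in replicate 2. The sites at 16331330 to 16332221 (185.59), 13745252 to 13747046 (183.01) and 14840313 to 14841464 (182.68) scored 1461, 1090 and 1173 in replicate 1. All of those 3 stood at 3100 in replicate 2. The site from 13968915 to 13970403 scored 179.62, with 3128 in replicate 1, the highest replicate 1 score in the window, and 3100 in replicate 2.

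The other 13 sites differed widely in replicate 1. Low replicate 1 scores belonged to the sites at 15567759 to 15569252 (236), 15772468 to 15773123 (301), 15645659 to 15646101 (156) and 13377341 to 13378179 (288). Their series-list scores were 177.94, 173.16, 166.42 and 159.87, and in replicate 2 they reached 3086, 2059, 899 and 1738. The site from 15645659 to 15646101 was thus the weakest of the 20 in both replicates. High in all lists were those at 17183986 to 17184984 (1933 in replicate 1), 14817116 to 14819685 (3100), 12669838 to 12670883 (2435) and 13916708 to 13918023 (2751), each at 3100 in replicate 2. The remaining sites lay at 16274972 to 16275569, 14333986 to 14334579, 15630574 to 15631172, 17627112 to 17628864 and 16408793 to 16409752. They scored 506 to 730 in replicate 1. The one from 17627112 to 17628864 ended 86.1 kb before the last covered base and still reached 3100 in replicate 2.

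The widest site of the window was the same in all lists. The series-list peak from 15272186 to 15278413 measured 6228 bp. Replicate 1 had its widest peak there, from 15272109 to 15278872 (6764 bp), and replicate 2 too, from 15270380 to 15282075 (11696 bp), both with a score of 3100. The replicate 2 peak took in 6 series-list peaks and 3 replicate 1 peaks. Next in width in the series list came the peaks at 15606090 to 15609346 (3257 bp, score 110.82), 13525589 to 13528339 (2751 bp, 128.57), 17479170 to 17481798 (2629 bp, 121.72) and 16611151 to 16613722 (2572 bp, 123.78). These 4 scored 2381 or more in replicate 1 and 3100 in replicate 2. No gene was assigned to any site.

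**Figure D5:**
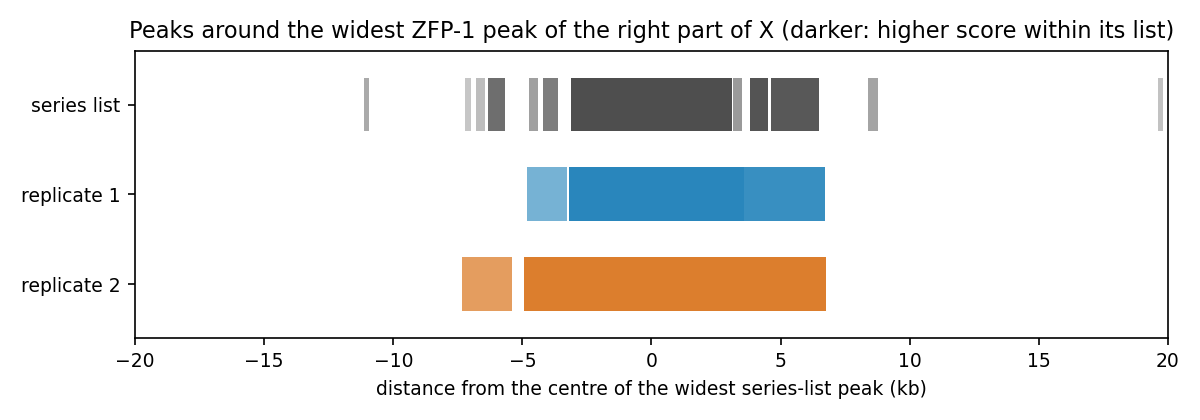
Peaks of the 3 lists around the widest series-list peak of the right part of X, by distance from its centre (x axis, kb), with darker shades for higher ranks within a list. A single replicate 2 peak of 11696 bp spans what the series list divides into 6 peaks and replicate 1 into 3.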

How the data were processed

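The values come from 3 peak lists in GFF3 format, 1 for each ZFP-1 ChIP replicate and 1 for the whole series. Each gives a peak's position and a score, as deposited by the authors. The caller is given as MACS for the replicates and MACS v2 for the series list, and the build as WormBase WS220, per the file headers and columns. The submitters' processing notes name BWA and ce10. The scale of the deposited score, the use of the input and any pooling of reads are not given in the sources used here. Scores served to rank peaks within a list and to describe pairs of replicate peaks.

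The other parts of X and the right arms of II to V follow the recombination domains as known for the species, taken from general knowledge and not from the files, with edges at 6137000 on X, 12020000 on II, 10340000 on III, 12970000 on IV and 16550000 on V. They run to the last base covered by any peak, a lower limit of the true end. Peaks were placed by midpoint. Densities were compared by exact two-sided binomial tests, which treat peaks as independent, with Benjamini-Hochberg adjustment over 18 comparisons (6 parts in 3 lists) and, for each alternative, over 6. A call means an adjusted p under 0.05. Shares have exact Clopper-Pearson 95% intervals. Intervals cover counting error only.

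Overlaps from 1 bp were counted as met, and bedtools 2.31.1 gave equal counts. Python 3.11.15, numpy 2.4.6, pandas 2.3.3, scipy 1.17.1 and matplotlib 3.10.9 were used, and the code was tested on simulated data. Named peaks were the 20 best-scoring with support in both replicates, the 5 widest, the widest of each replicate, the 5 longest gaps, the 3 longest runs and the peaks at both ends. The strongest unmatched peaks were named after their values were seen. Members and rules were chosen with earlier results of these data known. The gene table at hand is on assembly WBcel235, another build than the lists, so no genes or sequences are given.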

Additional observations from a re-analysis of the deposited data

How the results depend on the processing

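Across 11 results and 65 alternatives, 44 kept the call and direction, or gave a value within the main value's interval or spread. Of the 28 alternatives for the density ratios to the autosomal right arms, 26 kept the call and direction, though the size could fall or rise. Peaks met in both replicates gave larger ratios, 1.90 to III, 2.33 to II, 3.65 to IV and 6.65 to V. With peaks under 1 kb apart merged, the ratios were 1.39 to III, 1.52 to II, 2.49 to IV and 3.49 to V. Each lay below the interval of the main ratio, and each kept its call. In the better-scoring 50% they were 1.37, 1.68, 2.81 and 4.09 in the same order. The ratio to III fell from 1.72 to 0.99 and that to II from 1.99 to 1.21, without a call, in the highest-scoring 10%, an alternative chosen after seeing the data. For that setting fewer peaks were counted, 74 on X. The ratio to the left part of X, 1.10, lost its call in the better-scoring 50% (1.10), in the highest-scoring 10% (1.17), without the outermost 1 Mb (1.08) and with peaks under 1 kb apart merged (1.01), and was 1.08 to 1.21 without 1 of the replicates, the call being lost without replicate 1. With only peaks met in both replicates, the ratio to the left part was 1.19 and kept its call (exact binomial test, adjusted p = 0.0138). In the series list 46.4% of the gaps in the right part of X and 41.7% of those in the left part were under 1 kb. The ratio to the middle part of X, 1.05, gained a call without the outermost 1 Mb (1.09, exact binomial test, adjusted p = 0.0475). What caused these changes was not tested.

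The share of members met in both replicates, 39.2%, became 4.74% with 50% reciprocal overlap, which narrow peaks inside wide ones fail, 64.2% in the better-scoring 50%, and 40.1% or 78.9% with support asked of 1 replicate. The overlap of replicate 1 with replicate 2, 97.6%, became 78.4% with 50% reciprocal overlap. Values without 1 of the replicates are those of the other replicate's own list, called with MACS where the series list names MACS v2, so caller and library change together and cannot be told apart. In them covered share ran from 9.32% to 17.9%, median width from 1268 to 1293 bp and median gap from 3407 to 6902 bp. In the better-scoring 50% the median width was 535 bp and the median gap 3959 bp, and with peaks merged 501 bp and 4017 bp. Covered share, 9.64%, became 6.19% in the better-scoring 50% and 14.0% with peaks merged. Both were counted as within its spread, which was wide, at 3.55 to 15.7%. That spread is no counting interval, since it follows the distance between the 2 replicate values, 9.32% and 17.9%. A covered share counted as kept thus says little about how stable it is. Depth is unknown, so it is not shown what a deeper library would add. No paired analysis was possible because only the ChIP libraries come with peaks here, and both belong to 1 group.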
